A study of Rattus norvegicus with 7 samples.

Results

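The miRNAs described here are miR-322, miR-503 and miR-450a, which lie together on the X chromosome, with the star arm of each (miR-322*, miR-503* and miR-450a*). They were taken by their exact names on the array (rno-miR-322, rno-miR-503 and rno-miR-450a, each also with a star), which gave 6 of the 677 rat miRNAs and 12 of the 1644 probes. The arrays profiled liver RNA of adult male Sprague-Dawley rats fed for 28 days. The control group ate a control diet, and the PFOS group the potassium salt of perfluorooctanesulfonate, a long-lived industrial surfactant, mixed in at 50 mg/kg of diet. There were 4 PFOS arrays and 3 control arrays, with 1 rat per array. The submitters had hybridised RNA of 4 rats per group and left out 1 control array after quality control. The comparison asks which hepatic miRNAs differ with dietary PFOS, in a study concerned with thyroid hormone homeostasis.

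The cluster is transcribed as a polycistronic RNA from which several miRNAs are cut. miR-322, the rodent counterpart of human miR-424, and miR-503 belong to the extended miR-15/16 family, which is known for slowing the cell cycle through targets such as Cdc25a and the D-type cyclins, and both are known for their induction during muscle differentiation. miR-450a has a different seed, the stretch that pairs with targets, and so a different target set. In the RefSeq annotation (GRCr8) the 6 miRNA genes of the cluster lie on the minus strand of chromosome X. Their transcribed order is Mir322, Mir503, Mir351, Mir542, Mir450b-1 and Mir450a1, with the gene LOC102550366 listed between Mir351 and Mir542. The array design names another build, so no coordinates are given.

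The mature sequences are shown because the seeds decide which miRNAs belong together. They are RefSeq sequences (GRCr8), written 5′ to 3′ with the seed, bases 2 to 8, in capitals. The array files hold no probe sequences, so the unstarred names are taken as the 5p arms and the starred names as the 3p arms by the naming convention of the time.
miR-322-5p: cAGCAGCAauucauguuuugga
miR-503-5p: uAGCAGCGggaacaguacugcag
miR-450a-5p: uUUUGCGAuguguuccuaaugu
miR-322-3p: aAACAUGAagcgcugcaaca
miR-503-3p: gGAGUAUUguuuccgcugccugg
miR-450a-3p: uAUUGGGAacauuuugcauaa

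miR-322 and miR-503 share bases 2 to 7 but not the whole seed. The seed of miR-322 is that of miR-497, miR-195, miR-15b and miR-16, whose genes lie on chromosome 10 (miR-497 and miR-195) and chromosome 2 (miR-15b and miR-16). miR-497 is also the same as miR-322 over its first 8 bases and at 15 of 22 positions without gaps. miR-15b matches miR-322 at 16 positions, miR-16 at 12 and miR-195 at 11, each with a different first base. The seed of miR-450a is that of its neighbour miR-450b, and these miRNAs share their first 20 bases. No probe named for miR-450b is on the array. Whether the miR-450a probes also capture miR-450b was not tested.
miR-497-5p: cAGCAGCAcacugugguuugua
miR-195-5p: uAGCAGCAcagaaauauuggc
miR-15b-5p: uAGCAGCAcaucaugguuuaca
miR-16-5p: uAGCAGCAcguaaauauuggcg
miR-450b-5p: uUUUGCGAuguguuccuaaua

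Of the 6 miRNAs, miR-322 and miR-450a were measured above background on all 7 arrays, and miR-503 and the 3 star arms on none. A miRNA counted as detected on an array where more than 50% of the spots of at least 1 of its probes were flagged well above background. Of all miRNAs on the array, 123 were detected on every array and 458 on none, and 175 were detected widely enough to be tested. Only the arms named miR-322 and miR-450a could therefore be compared between the diets. The hairpins below show, in capitals, the arm that was detected, with the undetected 3p arm in the lower-case part that follows it.
Mir322: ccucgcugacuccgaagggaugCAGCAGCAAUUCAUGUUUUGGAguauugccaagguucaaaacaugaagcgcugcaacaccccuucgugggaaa
Mir450a1: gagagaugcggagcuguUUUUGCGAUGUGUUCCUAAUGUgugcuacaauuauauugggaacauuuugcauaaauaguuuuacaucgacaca

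For miR-322 (rno-miR-322) no difference between the diets was detectable on these 7 arrays. Its normalised signal (spot brightness after scaling and cyclic loess, in arbitrary units) was 148.9, 169.2 and 172 on control arrays 1 to 3. On PFOS arrays 1 to 4 it was 118, 189.5, 170.4 and 178.8. PFOS replicate 1 had the lowest value of the 7 and PFOS replicate 2 the highest, so the PFOS values spanned the whole control range. The means were 164 ± 31.8 (SD, n = 4) for PFOS and 163 ± 12.6 (SD, n = 3) for control. The log2 difference, PFOS minus control, was -0.01 (SE 0.18, 95% interval -0.44 to 0.41, limma adjusted p = 0.9997 over the 175 tested miRNAs).

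miR-450a (rno-miR-450a) likewise showed no detectable difference. Its normalised signal was 24.07, 29.53 and 34.25 on the control arrays. It was 22.62, 32.5, 25.7 and 36.34 on PFOS arrays 1 to 4. The groups overlapped throughout, with both the lowest value (PFOS replicate 1) and the highest (PFOS replicate 4) among the PFOS livers. The means were 29.3 ± 6.26 (SD, n = 4) for PFOS and 29.3 ± 5.09 (SD, n = 3) for control. The log2 difference was -0.01 (SE 0.20, 95% interval -0.50 to 0.48, limma adjusted p = 0.9997). These values sum both probes of miR-450a, of which only A_26_P00002801 was above background. On that probe alone control replicate 1 was the lowest array, at 23.53, beside 25.27 on PFOS replicate 1.

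**Figure D1:**
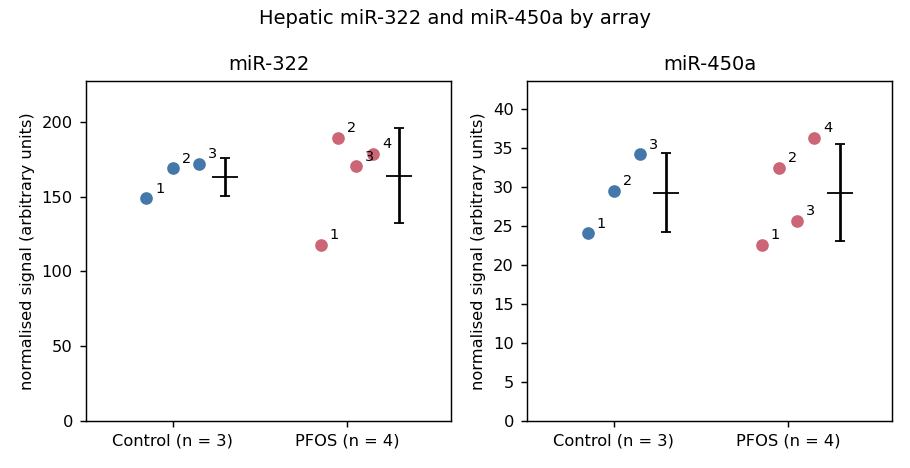
Normalised signal (arbitrary units, linear axis from 0) of miR-322 and miR-450a on each array, with the replicate number beside each point and the mean ± SD of a group beside its points. The PFOS points enclose or overlap the control points in both panels, and PFOS replicate 1 is the lowest array for both miRNAs. The miR-450a signal is summed over its probes, and on its detected probe alone control replicate 1 is the lowest.

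Neither miRNA was among those called. In limma 0 of 175 tested miRNAs passed an adjusted p of 0.05 (0%), and 34 (19.4%) had an unadjusted p under 0.05. The groups did not overlap for 34 miRNAs (19.4%), and both members were among the others. In size, 14 of the 175 miRNAs had a smaller absolute difference than miR-322 and 11 a smaller one than miR-450a, where the median absolute log2 difference was 0.154. The intervals above are wide beside that median, so a difference of that size in either direction is within what these 7 arrays allow. In whole liver, fewer cells of a type and less RNA per cell cannot be told apart. The labels name 1 rat per array, so in the spread over arrays the animals and the labelling and hybridisation of each array cannot be told apart.

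The 75th percentile over miRNAs detected on every array was higher on all 4 PFOS arrays than on the 3 control arrays. This moves the unscaled values, and array brightness by this measure cannot be told apart from diet. Before scaling, miR-322 read 120, 110.1 and 136.7 on the control arrays and 117.5, 234.9, 258.2 and 229.5 on the PFOS arrays. The factor by which an array's 75th percentile was scaled ran from 0.671 to 0.831 on control and from 0.901 to 1.62 on PFOS arrays. After that scaling alone, with no loess, the log2 difference was 0.065 for miR-322 and 0.078 for miR-450a. Of the slide's rows, the first held PFOS replicates 1 and 2 with control replicate 1, and the second held the others. Within the first row the log2 difference was 0.01 for miR-322 and 0.17 for miR-450a, and within the second 0.03 and -0.06.

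By probe, miR-322 was read by both of its probes and miR-450a by 1 of its 2. The probes of miR-322 (A_26_P00001001 and A_26_P00001002) were well above background on every kept spot of every array, 68 and 65 spots in all. Spots of 1 probe on 1 array varied with a coefficient of variation of 4.60% to 13.5% for the first and 4.82% to 11.7% for the second. Their log2 differences, in a fit over all 380 probes of the tested miRNAs, were -0.03 (SE 0.16, limma adjusted p = 0.977) and -0.0042 (SE 0.17, limma adjusted p = 0.999). Both probes of miR-322 therefore gave a difference far smaller than its standard error.

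Only the probe A_26_P00002801 of miR-450a was detected, and on it all 69 kept spots were well above background. Its mean net signal (unscaled, background subtracted) was 19.88, 19.02 and 27.1 on the control arrays and 22.54, 44.79, 42.33 and 46.77 on the PFOS arrays, and the spots of an array varied by 7.08% to 18.3%. The other probe, A_26_P00002800, read -3.19 to 0.504 with 0 of 70 spots well above background. The level of miR-450a given above sums both probes, so this unlit probe also enters it. On PFOS replicate 1 the unscaled sum was 19.35 where the detected probe read 22.54. The measured probe gave a log2 difference of 0.17 (SE 0.19, 95% interval -0.29 to 0.63, limma adjusted p = 0.697), beside -0.01 (SE 0.20) for the sum. The fit also called the unlit probe A_26_P00002800 (log2 difference 0.30, limma adjusted p = 0.049), but it was above background on no array, so its values come from the floor for low values and the loess and are no measured difference. In that fit 60 of the 380 probes (15.8%) passed at an adjusted p of 0.05 and 104 (27.4%) had an unadjusted p under 0.05. Of the 60, 36 were detected on no array. With only the 320 probes detected by the same rule, 2 passed (0.625%).

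miR-503 (rno-miR-503), the cell cycle inhibitor next to miR-322, was not seen in these livers at the sensitivity of the array. Its probe A_26_P00001728 had array means from -5.42 to -0.631 and A_26_P00001729 from -2.68 to 3.37, with 0 of 66 and 0 of 70 kept spots well above background. Negative control spots on the same arrays had means of 2.68 to 4.16, and the 95th percentile of their signal lay between 5.93 and 8.34. All values of both miR-503 probes were below that percentile on their own array. The probes of miR-503* read -3.86 to -0.895 and those of miR-450a* -4.21 to -0.454, again with no spot well above background. A reading below background bounds the signal of a probe and does not show that the miRNA is absent.

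One star-arm probe stood somewhat higher. The miR-322* probe A_26_P00001957 read 3.31, 2.24 and 2.65 on the control arrays and 1.35, 7.71, 10.7 and 8.53 on the PFOS arrays. PFOS replicates 2, 3 and 4 exceeded the 95th percentile of the negative controls, and PFOS replicate 1 and the control arrays did not. Only 3 of its 69 kept spots, all on PFOS replicate 4, were well above background, and the second miR-322* probe stayed between -5.02 and -1.90. Those 3 PFOS arrays were also the 3 brightest arrays by scale factor, and the part of array brightness in this reading was not tested. The 3 readings were the only ones above that percentile among 63 array means of the 9 undetected probes.

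**Figure D2:**
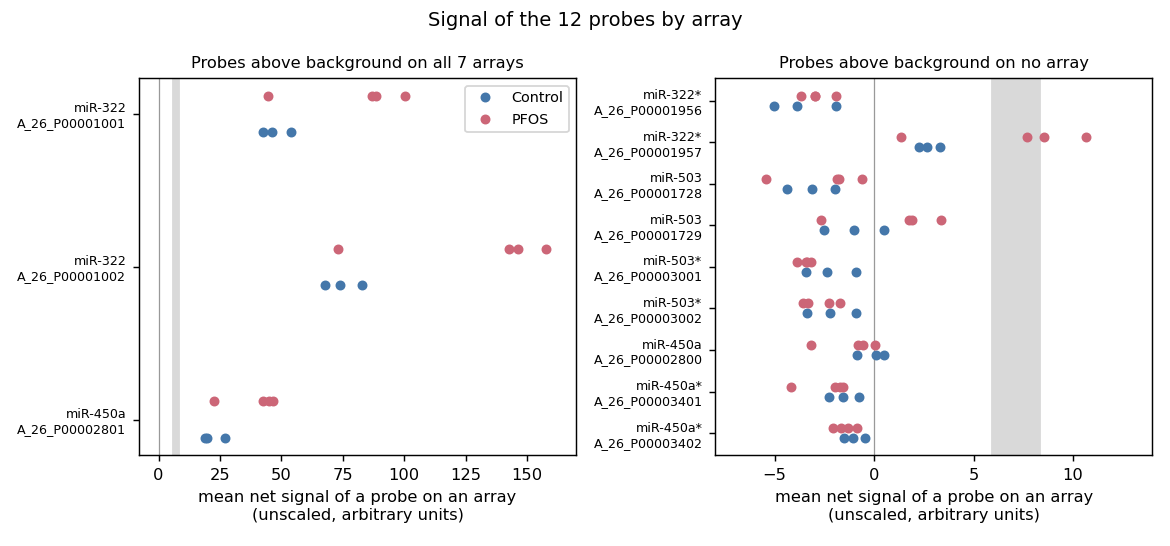
Mean net signal (unscaled, arbitrary units) of each of the 12 probes on each array, for the 3 probes above background on all 7 arrays (left) and the 9 above background on none (right). The grey band spans the 95th percentile of negative control spots over the arrays, 5.93 to 8.34. The right panel has its own scale, and only the miR-322* probe A_26_P00001957 reaches the band.

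The other miRNAs of the cluster were also below background on most or all arrays. miR-351, miR-351* and miR-542-5p were detected on no array. miR-542-3p was detected on 1 array, PFOS replicate 4, through the probe A_26_P00001658. That probe read 4.32, 3.65 and 4.93 on the control arrays and 1.91, 10.03, 13.2 and 12.1 on the PFOS arrays, so the same 3 PFOS arrays were high and the same PFOS array low as for the miR-322* probe. Of these 4 miRNAs, 0 could be tested. On both probes PFOS replicates 2, 3 and 4 lay above every control array and PFOS replicate 1 below. Both miR-503 probes, the miR-542-3p probe A_26_P00001659 and the miR-542-5p probe A_26_P00001656 had this pattern too, with no spot well above background. The cluster's other undetected probes did not. These readings are unscaled, and those 3 PFOS arrays were the brightest by scale factor. The part of array brightness in the pattern was not tested.

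Over the 7 arrays, miR-322 and miR-450a varied together. Pearson's r of their normalised log2 signal was 0.799 (exact permutation p = 0.00774, adjusted p = 0.0155 over 4 correlations) and Spearman's rho 0.857 (exact permutation p = 0.0238, adjusted p = 0.0952), all two-sided. The same r, 0.799, was found in the deviations from the group means (permutation within groups, exact p = 0.0278). It rests on few livers. Without PFOS replicate 1 and control replicate 1, the arrays farthest from the median of miR-322, r was 0.462 (exact permutation p = 0.467). Without PFOS replicate 1 alone it was 0.748 (exact permutation p = 0.0653). The slide rows, with 3 and 4 arrays, hold too few for a value within each. The correlations use miR-450a summed over its probes, and r with its detected probe alone was not computed.

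The arrays share a scaling, so r was set beside that of all miRNAs. Over the 7503 pairs of the 123 miRNAs detected on all arrays, the median r was -0.02, and 3.03% of pairs had an r at least as high as that of miR-322 with miR-450a. Of the 122 other miRNAs, miR-450a ranked 8 in likeness to miR-322, and miR-322 ranked 2 in likeness to miR-450a. With 75th percentile scaling and no loess, r was 0.949 and miR-450a ranked 1 in likeness to miR-322 (exact permutation p = 2e-04, the smallest that 7 arrays can give). Against the log2 scale factor of the array no correlation passed. The signals had already been divided by that factor and put through loess, so this cannot show the part of array brightness in r. The r with the log2 scale factor was 0.332 for miR-322 (exact permutation p = 0.490, adjusted 0.653, rho 0.393, exact p = 0.396) and 0.0854 for miR-450a (exact permutation p = 0.851, adjusted 0.851, rho 0, exact p = 1). In the deviations from the group means, r with the scale factor was 0.593 for miR-322 and 0.168 for miR-450a (permutation within groups, exact p = 0.410 and 0.826). As a measure of technical agreement, the probes of miR-322 had r = 0.980 with each other (exact permutation p = 0.00536, adjusted 0.0155, rho 0.75, exact p = 0.0663), or 0.4995 (exact permutation p = 0.383) without PFOS replicate 1 and control replicate 1.

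**Figure D3:**
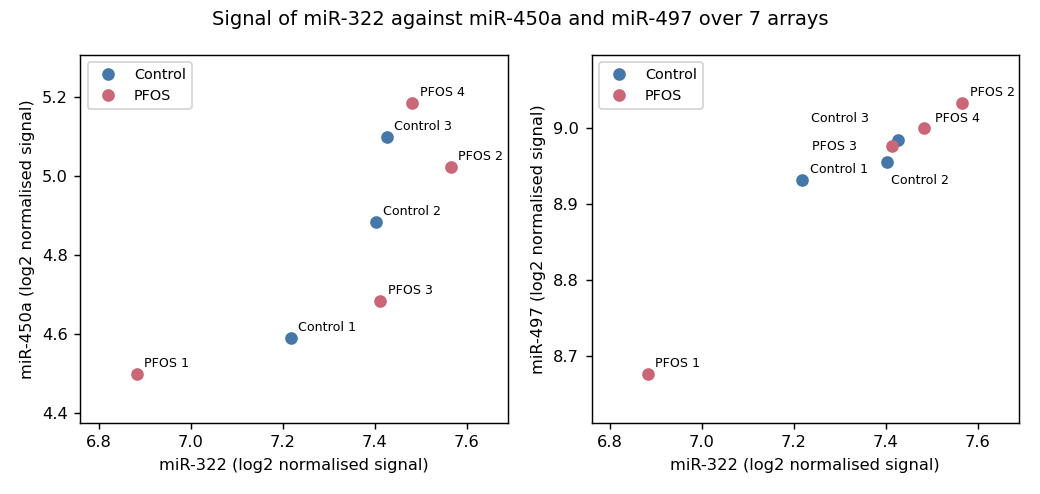
Normalised log2 signal of miR-322 (horizontal axes) against miR-450a (left) and miR-497 (right), with a point per array coloured by diet. PFOS replicate 1 lies at the lower left of both panels. The other 6 arrays lie between 7.22 and 7.57 for miR-322.

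The spread of miR-450a over arrays was above that of most detected miRNAs, and that of miR-322 was so only with PFOS replicate 1 included. The highest array was 1.61-fold above the lowest for each. The SD over the 7 arrays on the log2 scale was 0.228 for miR-322 and 0.265 for miR-450a. The median of the 123 miRNAs detected on all arrays was 0.168, and 69.1% and 74.8% of them had an SD no larger. Without PFOS replicate 1 the SD of miR-322 was 0.115, below the median of 0.156 over the same 6 arrays, and its highest array was 1.27-fold above its lowest. The SD of miR-450a was then 0.236. With any other array left out, both stayed above the median. miR-450a was dim, at 22.62 to 36.34 beside a floor of 12.1, and its value also sums an unlit probe. The part of dim signal in its spread was not tested. The ratio of miR-322 to miR-450a within an array, on the log2 scale of signal, ran from 2.30 to 2.73. It was 2.63, 2.52 and 2.33 on the control arrays and 2.38, 2.54, 2.73 and 2.30 on the PFOS arrays. The ranges of both diets overlapped. Since probes differ in brightness, this ratio compares arrays and is not a ratio of amounts.

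The miRNA whose pattern was most like that of miR-322 was miR-497, which carries the same seed on another chromosome. Over the 7 arrays r was 0.973 and the rank order was identical (rho 1), in a description with no test, since miR-497 was picked as the highest of 122. Relative to its mean, miR-497 stood at -0.26 on PFOS replicate 1 and between -0.01 and 0.10 on the other arrays. Its r without PFOS replicate 1 was not computed, and whether the miR-322 probes also capture miR-497 was not tested. After miR-497, the most alike were miR-27a (r = 0.928), let-7e (0.831), miR-151 (0.823) and miR-143 (0.809), the last a miRNA of smooth muscle and mesenchymal cells. Without loess the value fell to 0.286 for miR-151 and was 0.935 for miR-497, 0.840 for miR-27a, 0.727 for let-7e and 0.796 for miR-143. With loess, the rank order was less alike for miR-27a (rho 0.68), miR-151 (0.61) and let-7e (0.54), but not for miR-143 (0.93). The least alike were miR-196c (-0.797), miR-451 (-0.656), miR-142-5p (-0.651), miR-142-3p (-0.603) and miR-146a (-0.601). The rho was -0.36 for miR-142-3p and -0.32 for miR-142-5p, so their rank order was less opposed. Of the erythroid miRNAs, miR-144 had r = -0.57 beside miR-451. Of the other leukocyte miRNAs listed, miR-150 had r = -0.56 and miR-223 r = 0.14, so that list did not lie wholly at this end.

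The other miRNAs with the seed of miR-322 did not all follow it. All 4 on the array were detected on every array, and no probe is named for miR-15a. miR-195, which shares its locus with miR-497, had r = 0.803 with miR-322 but a rho of 0.179. For miR-15b r was -0.04 and for miR-16 it was -0.30. None of the 4 was called between the diets. Their log2 differences were all negative, from -0.19 to -0.04, with a median of -0.05 against -0.02 over all 175 tested. That of miR-15b was -0.19 (SE 0.13, limma adjusted p = 0.499), that of miR-195 -0.06 (SE 0.10, limma adjusted p = 0.859), that of miR-16 -0.05 (SE 0.12, limma adjusted p = 0.940) and that of miR-497 -0.04 (SE 0.10, limma adjusted p = 0.977).

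**Figure D4:**
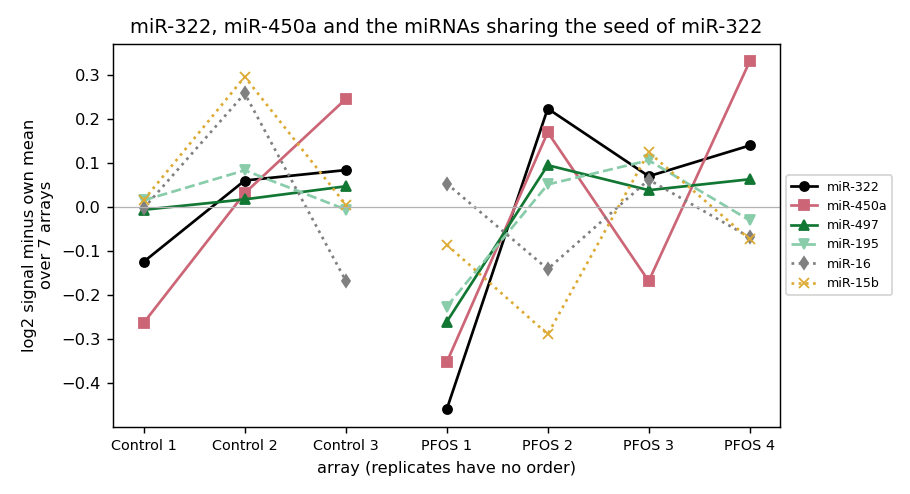
Log2 normalised signal of each miRNA minus its own mean over the 7 arrays, per array, with lines joining the arrays of a diet only to guide the eye. miR-322, miR-450a, miR-497 and miR-195 are all lowest on PFOS replicate 1, at -0.46, -0.35, -0.26 and -0.23, while miR-16 is at 0.05 there. For miR-450a this holds for the sum of its probes and not for its detected probe alone.

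Marker miRNAs were those of liver. miR-122, the most abundant miRNA of hepatocytes, was detected on all arrays, at 57370 to 60190, and all 5 hepatocyte miRNAs on the array were detected on all arrays. So were both endothelial and both erythroid miRNAs, 4 of 4 leukocyte, 3 of 5 stellate cell and fibroblast and 2 of 5 epithelial miRNAs. Of 6 muscle miRNAs, 5, among them miR-1 and miR-133a, were detected on no array, and miR-206 on 5 arrays. In limma 0 members of these lists were called, and 0 of the 4 with the seed of miR-322. Median log2 differences over the tested members were -0.09 for the hepatocyte, 0.01 for the endothelial, -0.10 for the erythroid and 0.04 for the leukocyte list. They were -0.04 for the stellate cell and fibroblast and 1.57 for the epithelial list, with -0.91 for miR-206 alone. The epithelial median is over 3 of 5 miRNAs. Among them miR-429 was detected on no control array and entered the test through its 4 PFOS arrays. miR-145 of the stellate cell list was also detected on no control array.

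**Figure D5:**
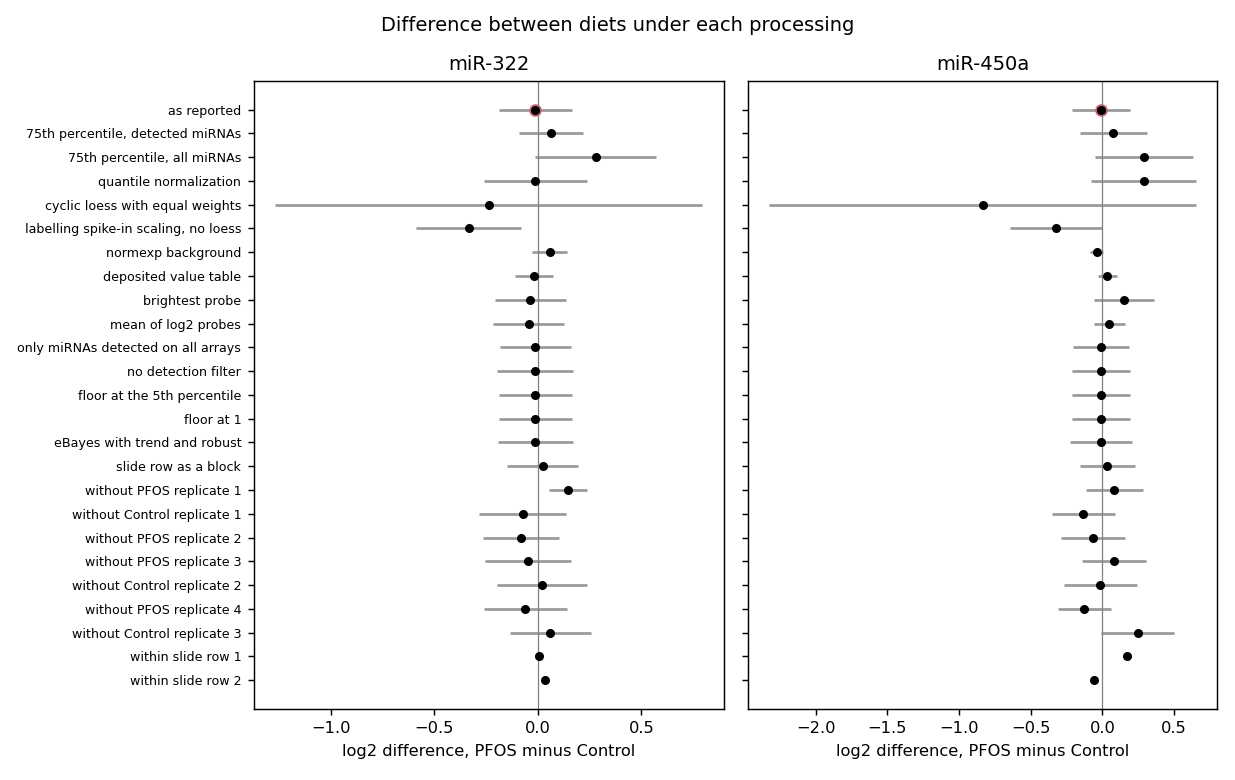
Log2 difference, PFOS minus control, of miR-322 and miR-450a as reported (red) and under each other processing, with bars of 1 standard error where a test was run and none for values within a slide row. The points scatter on both sides of 0, and none passed an adjusted p of 0.05 in limma.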

How the data were processed

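Liver total RNA of 7 rats was labelled with Cy3 and hybridised to 1-colour Agilent rat miRNA arrays on 1 slide. Spot intensity was made by the authors with Feature Extraction 10.7.3.1, per the file headers. The processed signal used is background-subtracted and detrended, and is not normalized between arrays. The submitters' own deposited table is on the log2 scale after cyclic lowess, as stated per the labels, with settings not given in the sources used here. Its column medians, in accession order, were 5.50, 5.50, 5.48, 5.50, 5.51, 5.50 and 5.51. Each column followed the log2 median signal of the scanner files (r from 0.9987 to 0.9999 across miRNAs, which are not independent replicates), so it is not centred per miRNA, has no background subtracted, and runs in the direction of signal.

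Spots without an outlier flag were averaged per probe, and probes of a miRNA summed. Arrays were scaled to the 75th percentile of miRNAs detected on every array, floored at the 1st percentile of detected values (12.1), put on the log2 scale and normalized by cyclic loess (limma, span 0.7, 3 iterations) weighted to the same miRNAs. Tested were miRNAs detected on all 3 control or at least 3 PFOS arrays. Groups were compared by limma 3.58.1 in R 4.3.3 (lmFit, eBayes, 6.51 degrees of freedom), with Benjamini-Hochberg adjustment. The limma fit was run on simulated data with added changes, after loess with equal weights, so the weighted loess used here was not tested that way. Correlations have exact two-sided permutation p-values, over 5040 orderings for all 7 arrays. Within groups and with arrays left out, fewer orderings exist, and all of those were used. Precision is limited by the number of arrays.

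The miRNAs named were the members, the other miRNAs of the cluster, those of the same seed, and the 5 most and 5 least like miR-322. Members and lists were chosen with earlier results of these data known. Alternatives concerned normalization, background, probe summary, detection filter, floor, variance moderation, threshold and slide row, and single arrays were left out. A fit limited to detected probes, and the spread with each array left out, were chosen after seeing the data.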

Additional observations from a re-analysis of the deposited data

Results flagged for a closer look

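Among the 4 PFOS arrays, 1 array stood apart from the other 3 for 3 of 10 measures screened, and in each it was PFOS replicate 1, the lowest. The gap to the nearest array, as a share of the range over the 4, was 0.8729 for the miR-322 probe A_26_P00001001, 0.8425 for the miR-322 probe A_26_P00001002 and 0.8406 for miR-497, each above Dixon's 95% critical value for 4 samples. For miR-322 summed over its probes the share was 0.775, below that value. Chance flags about 1 in 20 such groups, and these measures share an array. No cause was tested.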

How the results depend on the processing

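Neither member passed the threshold in any of 44 tests under the alternatives (smallest limma adjusted p = 0.360 with spike-in scaling, otherwise 0.420 without PFOS replicate 1), and of these values 27 were negative. Since both differences lie near 0, their sign turned easily. For miR-322 it turned under 75th percentile scaling over detected miRNAs (0.065), over all miRNAs (0.28, beside a median shift of 0.25 for the tested miRNAs), normexp background (0.056) and the slide row as a block (0.022). For miR-450a it turned under the same scalings (0.078 and 0.29), quantile normalization (0.29), the deposited value table (0.035), the brightest probe (0.15), the mean of log2 probes (0.048) and the slide row as a block (0.034). Spike-in scaling used control spots taken as the labelling spike-in, which the files do not state. Their signal was 2.13-fold higher on PFOS than on control arrays. The scaling moved the tested miRNAs to a median of -0.36, and the values were -0.34 and -0.32, and under loess with equal weights -0.24 (SE 1.03) and -0.84 (SE 1.49). Leaving out 1 array gave -0.081 to 0.15 for miR-322, the highest without PFOS replicate 1, and -0.13 to 0.25 for miR-450a, the highest without control replicate 3. The miR-322 probes gave 0.038 and 0.082 without loess and, with 1 array left out, -0.10 to 0.090 and -0.083 to 0.14, and the miR-450a probe 0.06 to 0.32. The causes were not tested.

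The number of miRNAs called in limma, 0, was 3 with 75th percentile scaling over all miRNAs, 22 with normexp, 9 in the deposited value table, 1 with no detection filter and 4 with the slide row as a block. It was 0 with any 1 array left out. The r of miR-322 and miR-450a was 0.839 in the deposited value table, 0.462 without the 2 arrays farthest from the median, and 0.748 to 0.880 with 1 array left out. No paired analysis was possible because the labels give no replicate number shared between the groups. Dim signal limits miR-450a, and for miR-503 and the star arms no difference can be measured.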

Other observations

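In the authors' deposited table, on their own log2 scale, miR-322 stood at 6.90, 7.03 and 7.08 (7.075) on control arrays 1 to 3 and at 6.77, 7.13, 7.0 and 7.02 on PFOS arrays 1 to 4. miR-450a stood at 5.76, 5.86 (5.855) and 5.94 on control and at 5.80, 5.98, 5.85 and 5.91 (5.905) on PFOS arrays. PFOS replicate 1 was the lowest array for miR-322 there too, while control replicate 1 was the lowest for miR-450a. Control replicate 1 was also the lowest in the normalised signal of the detected miR-450a probe alone.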
